A study of Mus musculus with 11 samples.

Results

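ATAC-seq, which uses a transposase to tag accessible DNA, was applied to sorted cells of the mouse esophagus. The regions described here were open in all 3 libraries of mice with an activated Hedgehog pathway and a conditional Sox9 allele, and had no interval in the 6 libraries of wild-type mice and of mice with the activated pathway alone. The intervals that the authors called in 11 libraries were merged wherever they shared 1 bp, which gave 124941 regions on chromosomes 1 to 19 and X. A region was counted as open in a library where it held an interval of that library's list. Under this rule 251 of the 124941 regions (0.201%) were members. The rule used the lists of the 9 libraries labelled esophagus without an embryonic stage, called adult here although no age is given. The contrast between the Sox9fl/fl group and the other adult groups is therefore given as a description only.

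The group in which the members were open, K5SmoM2Sox9cKO, carried Krt5-SmoM2 together with Sox9fl/fl (3 libraries, no strain given), and its cells were sorted for high EpCam, an epithelial adhesion protein. The K5SmoM2 group carried Krt5-SmoM2 without the Sox9 allele on a CD1 background (3 libraries, sorted for high EpCam). The WT group was wild type on CD1 (3 libraries), and its cells were sorted for low EpCam. The Embryo group came from embryonic esophagus at E13 of Krt8YFP mice (2 libraries, sorted on YFP). Both mutant groups share SmoM2, an activated form of the Hedgehog receptor component Smoothened named in the labels with the basal keratin Krt5; the Cre line, the time of recombination and the ages of the adults are not given by the labels. Because strain is given for the K5SmoM2 and WT groups only, the Sox9 allele, the strain and any shared collection of the K5SmoM2Sox9cKO mice cannot be told apart, and the K5SmoM2 and WT groups also differ in the EpCam gate. Nothing in the labels says that the libraries of a group came from separate animals, so the spread between them may be technical.

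Sox9 is a transcription factor of the SOX family, whose proteins bind short AT-rich sequences and can bind DNA wrapped in nucleosomes. The adult esophagus is lined by a stratified squamous epithelium with Krt5-positive basal cells, while its embryonic precursor is a simple epithelium that expresses Krt8. Hedgehog signalling reaches the nucleus through Smoothened and the Gli factors, and Sox9 is among the genes it is known to raise in epithelia. An open region marks DNA that is accessible, often a promoter or an enhancer, and does not by itself show that a nearby gene is expressed.

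The lists held between 69026 and 87910 intervals in the 9 adult libraries, and 24902 and 14255 intervals in the Embryo libraries. The numbers of reads behind them are unknown. The region at an end of Krt5, of Krt14, of Epcam and of Cdh1 was open in all 9 adult libraries, and neither end of Ptprc, the pan-leukocyte gene, nor of Pecam1, an endothelial gene, was open in any library. Neither end of Trp63, a squamous identity gene, was open in any library either, while an end of Krt8 and an end of Sox2 were open in all 11. Only the outer ends of each gene were read here, so a start inside a gene body would not be seen. One end of Col1a1, a fibroblast gene, was open in all 11 libraries and one end of Myh11, a smooth muscle gene, in all 9 adult ones. The other end of Col1a1 was open in all 3 K5SmoM2Sox9cKO and all 3 K5SmoM2 libraries and in no WT library. Of Sox10, a neural crest and glial gene, both ends were open in K5SmoM2Sox9cKO replicate 1 and one end in WT replicate 3. The part of such cells in the results was not tested. The deletion could not be checked from these lists: of 2 regions on the body of Sox9, each K5SmoM2Sox9cKO library held 1, as did each K5SmoM2 and each WT library.

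Most members lay away from gene starts, so a genome sequence would be needed to show them. Start-site sequence was read for the few members that lay on one. The 250 bases before the start are shown for Skint3, whose start lay in the strongest member found at any start; for Ihh, the only Hedgehog ligand with a member; and for Efna1, which encodes a ligand of the Eph receptors discussed further on. Each runs 5′ to 3′ on the strand of its gene in GRCm38.p6, from RefSeq, and capitals mark the matches to the motifs searched. The Skint3 sequence is chr4:112231995-112232244, plus strand; that of Ihh is chr1:74951673-74951922, minus strand; that of Efna1 is chr3:89280952-89281201, minus strand.
Skint3: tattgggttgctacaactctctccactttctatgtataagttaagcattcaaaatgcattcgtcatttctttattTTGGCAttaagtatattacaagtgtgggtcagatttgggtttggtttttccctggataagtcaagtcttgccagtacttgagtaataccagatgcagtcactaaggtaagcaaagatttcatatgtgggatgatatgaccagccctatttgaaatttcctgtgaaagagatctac
Ihh: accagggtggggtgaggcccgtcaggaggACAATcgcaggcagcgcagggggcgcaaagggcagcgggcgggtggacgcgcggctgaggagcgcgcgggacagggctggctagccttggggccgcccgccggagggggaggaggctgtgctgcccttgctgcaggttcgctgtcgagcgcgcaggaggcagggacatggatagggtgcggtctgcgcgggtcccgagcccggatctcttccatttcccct
Efna1: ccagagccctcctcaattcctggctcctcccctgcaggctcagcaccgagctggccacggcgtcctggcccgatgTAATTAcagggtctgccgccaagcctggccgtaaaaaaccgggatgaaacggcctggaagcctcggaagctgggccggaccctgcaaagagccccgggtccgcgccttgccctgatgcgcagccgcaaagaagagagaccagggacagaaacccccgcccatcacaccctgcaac
The Skint3 window was 36.8% G and C with 1 CpG, whereas the Ihh window was 72.0% with 24 CpG and the Efna1 window 64.8% with 16 CpG. All 32619 promoter windows of the same length had a median of 52.4% and 6 CpG, so the Skint3 start was poorer in CpG than most and those of Ihh and Efna1 richer. A SOX core (ACAAT) was found in the Ihh window 221 bases before the start, and the same letters stood in 27.3% of all promoter windows. An NFI core (TTGGCA) was found 175 bases before the Skint3 start and in 12.3% of all windows, and a homeobox core (TAATTA) 175 bases before the Efna1 start and in 4.80% of all windows. The windows of 2 further genes whose start lay in or beside a member, LOC108167564 and Gm46264, were searched and are not printed. That of LOC108167564 held the SOX core 218 bases before the start, within the longer AACAAT that stood in 9.34% of all windows, and a TCF/LEF match in 3.23% of all windows; that of Gm46264 held no match.

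The search covered 27 motifs on both strands. SOX factors were searched by the core ACAAT, by a longer form that adds an A before it, and by the looser pattern ACAANG, which can overlap both. AP-1 was searched as TGANTCA, the Gli factors of the Hedgehog pathway as GACCACCCA and forkhead factors as TGTTTAC. TEAD factors were searched as GGAATGT, grainyhead-like factors as AACNNGTT and Krüppel-like factors as GGGTGTGG. RUNX factors were searched as TGTGGTT, ETS factors as ACAGGAAG and the SP factors as GGGGCGGGG. The core of NFI was TTGGCA, and its full palindrome was searched as well; the E-box was written as CAGCTG and the TCF/LEF site of the Wnt pathway as ATCAAAG. Factors of the GATA family were searched as AGATAA, STAT factors as TTCNNNGAA and CEBP factors as TTGCNNAA. The homeobox pattern was TAATTA, that of the POU octamer was ATGCAAAT and that of nuclear receptors was AGGTCA. MEF2, NF-kB, HNF1, CTCF and the p53 family were searched by longer patterns. Between 0.0368% and 36.1% of all promoter windows held each of these. No other motif had a match in the windows of Skint3, Ihh and Efna1.

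The members were mostly weak intervals, with a small strong set among them. The strength of an interval is given by the authors' −log10 q, which rises as an interval stands further above its local background, and by the authors' fold enrichment over that background. The median −log10 q of the members was 4.18, 4.87 and 4.28 in K5SmoM2Sox9cKO replicates 1, 2 and 3, against 12.7, 16.5 and 14.3 for all intervals of the same lists. Members ranged over 1.36 to 37.8 in replicate 1, 1.40 to 45.9 in replicate 2 and 1.36 to 59.7 in replicate 3. Their median fold enrichment was 3.59, 3.93 and 3.87. Sets of 3 values given below without a name are the −log10 q in K5SmoM2Sox9cKO replicates 1, 2 and 3. With rank 0% as the strongest interval of a list, the median member stood at 82.4%, and 9 of the 251 stood in the upper 50% of the lists. Regions open in all 3 libraries of K5SmoM2 alone (1155 regions, 0.924% of all) had a median rank of 75.1% in their own lists, and those of WT alone (2216 regions, 1.77%) one of 71.1%. Across the 251 members, strengths in 2 K5SmoM2Sox9cKO libraries were correlated with Spearman's rho between 0.34 and 0.38; the points share the rule that chose them.

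**Figure D1:**
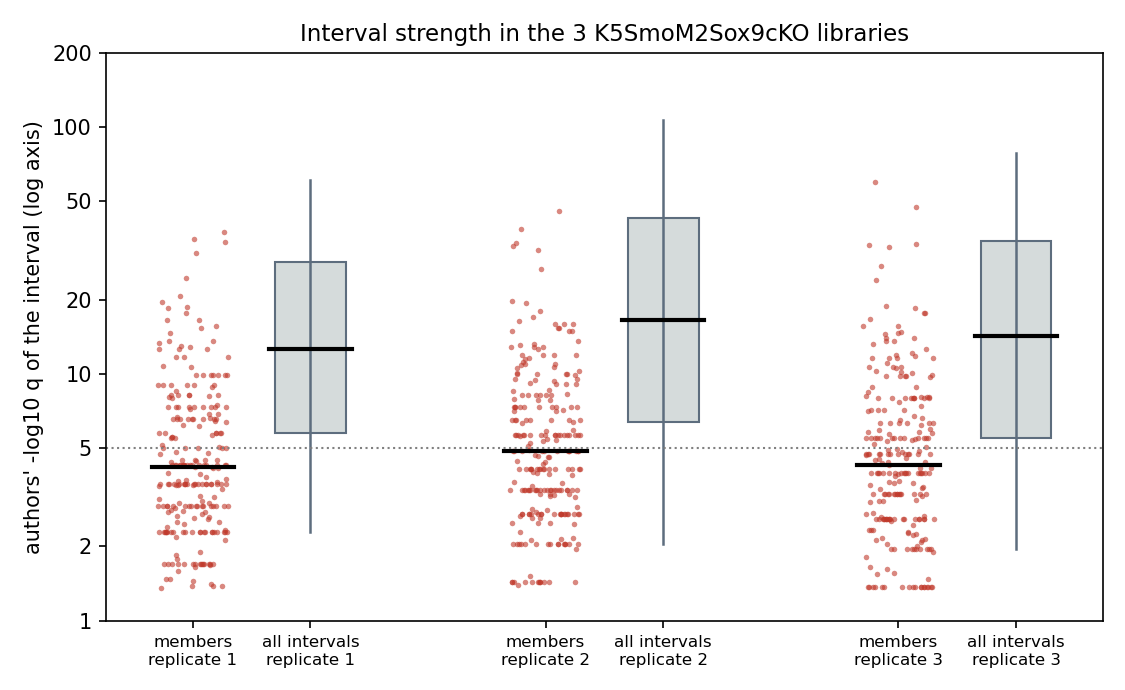
Authors' −log10 q (log axis) of the 251 members (points, left of each pair) and of all intervals (box: quartiles; whiskers: 5th to 95th percentile, right of each pair) in the 3 K5SmoM2Sox9cKO libraries; black lines are medians and the dotted line is at 5. The medians of the members, 4.18, 4.87 and 4.28, lie below the lower quartile of all intervals in each library, with a few members above 20.

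A −log10 q of 5 or more was reached by 42 members in all 3 K5SmoM2Sox9cKO libraries, by 53 in 2, by 80 in 1 and by 76 in none. A value of 10 or more was reached in all 3 libraries by 11 members. The 42 strong members (16.7% of all) recur below: by the bound of 5 they also meet the stricter alternatives tried, and they met the rule under all 6 alternative definitions of an open region.

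The 2 best-ranked members, by the median of their ranks in the 3 lists, lay between Pax1 and Foxa2 on chromosome 2, where no protein-coding gene was found within 100 kb. Foxa2 encodes a forkhead factor of the endoderm, and Pax1 a paired-box factor of the pharyngeal endoderm and the skeleton. The first, chr2:147747240-147748248, had a −log10 q of 35.2, 32.9 and 59.7 and a fold enrichment of 6.87, 8.90 and 9.10 in K5SmoM2Sox9cKO replicates 1, 2 and 3. The second, chr2:147767670-147768434, had a −log10 q of 34.3, 26.7 and 47.6. Replicate 3 was the highest at both, and no K5SmoM2, WT or Embryo library held an interval at either. Another in the same stretch, chr2:147755560-147756929, reached 18.7, 19.8 and 33.6. Together with chr2:147703888-147704561 and chr2:147719094-147719520 they made a run of 5 members within 64.5 kb, the run with the most members, and 4 of the 5 were among the 42 strong members. A noncoding RNA gene, A530006G24Rik, lies within this run.

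The wider interval from Pax1 to Foxa2 (668 kb) held 41 regions. Of these 22, 19 and 19 were open in the K5SmoM2Sox9cKO libraries, 13, 15 and 15 in the K5SmoM2 libraries, and 5, 8 and 4 in the WT libraries. The 2 Embryo libraries held 15 and 4. With the 5 members set aside, the K5SmoM2Sox9cKO libraries held 15 ± 1.73 open regions here (SD, n = 3), the K5SmoM2 libraries 14.3 ± 1.15 (SD, n = 3) and the WT libraries 5.67 ± 2.08 (SD, n = 3). K5SmoM2 and WT did not overlap, but a two-sided exact permutation test of 3 against 3 cannot go below p = 0.10, which is the value it gave (0.30 adjusted over the 3 gene neighbourhoods tested). The other regions of the 668 kb numbered 14 to 17 in K5SmoM2Sox9cKO, 13 to 15 in K5SmoM2 and 4 to 8 in WT. In the 84.5 kb around the run of 5 members they numbered 5, 2 and 6 in K5SmoM2Sox9cKO replicates 1, 2 and 3. There K5SmoM2 held 1, 2 and 1 and WT held 1, 2 and 0, so most of the difference between K5SmoM2 and WT lay outside the run.

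The Skint genes of chromosome 4 held 8 members, 6 of them among the 42 strong ones. Skint proteins are butyrophilin-like molecules of keratinocytes and thymic epithelium, and Skint1 is required for the development of the γδ T cells that populate the epidermis of the mouse. The strongest, chr4:112124383-112125657 in the body of Skint4, had a −log10 q of 18.5, 45.9 and 33.4 and a fold enrichment of 7.72, 12.7 and 10.5 in K5SmoM2Sox9cKO replicates 1, 2 and 3. The member chr4:112526259-112526992, 86606 bp from Skint2, had a −log10 q of 30.8, 18.0 and 11.6. That at chr4:113320596-113321499, 33623 bp from Skint6, had 17.7, 19.4 and 10.7. No K5SmoM2, WT or Embryo library held an interval at these 3, and the order of the K5SmoM2Sox9cKO libraries differed between them. The member on the Skint3 start, chr4:112231705-112232294, which covers the whole sequence printed above, had a −log10 q of 13.6, 5.66 and 9.77. A pair near Skint2 and Skint9 were of middle strength, chr4:112540338-112540831 with a −log10 q of 5.01, 10.001 and 11.6 and chr4:112521048-112521757 with 9.92, 11.9 and 5.50. The last pair were weak, chr4:112223802-112225071 near Skint3 with 4.28, 1.44 and 1.95 and chr4:113445819-113446320 near Skint5 with 4.28, 3.39 and 3.98.

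The 11 Skint genes span 2325 kb, in which 27, 23 and 21 regions were open in the K5SmoM2Sox9cKO libraries, 13, 11 and 12 in the K5SmoM2 libraries and 10, 12 and 11 in the WT libraries. No Embryo library held one. Without the members, 15.7 ± 3.06 regions were open in K5SmoM2Sox9cKO, 12 ± 1 in K5SmoM2 and 11 ± 1 in WT (SD, n = 3 each), and for K5SmoM2 against WT the two-sided exact permutation test gave p = 0.50 (0.50 adjusted). The Skint members also stood far from other open chromatin. Over all members the median distance to the nearest region with an interval in K5SmoM2 or WT was 4675 bp; 9 members lay more than 100 kb from one, and 6 of those 9 were Skint members, the farthest being that on the Skint3 start at 203225 bp.

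A further such neighbourhood was the chemokine gene cluster of chromosome 11. Ccl12 and Ccl8 encode chemokines that attract monocytes. The member chr11:82086730-82087473, 14372 bp from Ccl12, had a −log10 q of 37.8, 38.8 and 14.5 and a fold enrichment of 8.60, 11.7 and 7.16 in K5SmoM2Sox9cKO replicates 1, 2 and 3. It was the highest of all members in replicate 1. The others, chr11:82089571-82090002 near Ccl12 and chr11:82132777-82133296 near Ccl8, had a −log10 q of 19.6, 6.31 and 8.02 and of 16.5, 13.6 and 7.98. All 3 were in the strong set. Among the 6 genes from Ccl2 to Ccl1 (144 kb), 12, 10 and 9 of 13 regions were open in K5SmoM2Sox9cKO, against 4, 6 and 6 in K5SmoM2 and 4, 3 and 3 in WT, and none in the Embryo libraries. With the members the K5SmoM2Sox9cKO libraries stood above all others; without them they held 9, 7 and 6, and the lowest equalled K5SmoM2 replicates 2 and 3 at 6. The means without the members were 7.33 ± 1.53 open regions in K5SmoM2Sox9cKO, 5.33 ± 1.15 in K5SmoM2 and 3.33 ± 0.58 in WT (SD, n = 3 each); for K5SmoM2 against WT the two-sided exact permutation test gave p = 0.20 (0.30 adjusted). The list of 12 immune genes with a region, which would mark leukocytes, held no member. Its 14 regions open in all 3 K5SmoM2Sox9cKO libraries allow a share of up to 21.4%, against 0.42% of all such regions. Nothing can be read from that count, and a part of such cells in these regions was not tested.

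**Figure D2:**
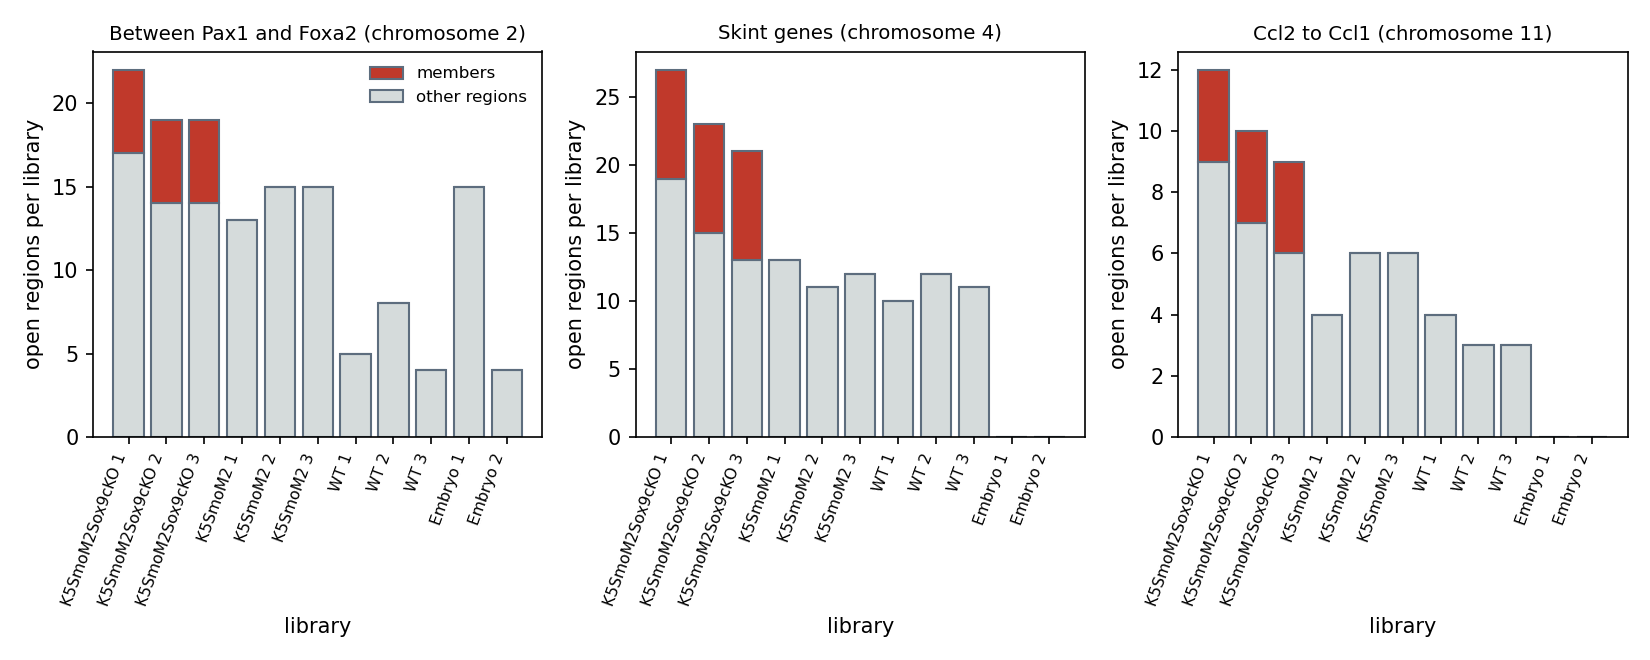
Number of open regions per library (vertical axes, each panel on its own scale) in 3 gene neighbourhoods, split into members (red) and all other regions (grey), for K5SmoM2Sox9cKO, K5SmoM2, WT and Embryo libraries from left to right. Members add 5, 8 and 3 regions to each K5SmoM2Sox9cKO library; the other regions between Pax1 and Foxa2 number 14 to 17 in K5SmoM2Sox9cKO, 13 to 15 in K5SmoM2 and 4 to 8 in WT.

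In all, 34 members (13.5%) stood in 13 runs of 2 or more within 100 kb of each other, and 6 runs had at least 3. Beside those above, 3 members lay in or near Banp and Zfp469 on chromosome 8, and 3 in Grik4 on chromosome 9. Chromosome 11 held the most members, 25 (9.96%, against 6.37% of all regions), and chromosome 10 the fewest, 2 (0.797%, against 5.06%). X held 6.

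Other named members lay at single genes of varied function. Epha4 and Epha2 encode Eph receptor tyrosine kinases and Efna1 encodes ephrin-A1, a membrane-bound ligand of EphA receptors; the pair passes signals between touching cells. The member chr1:77279312-77280154, 87028 bp from Epha4, had a −log10 q of 20.7, 31.9 and 27.4 and a fold enrichment of 8.85, 12.1 and 10.8 in K5SmoM2Sox9cKO replicates 1, 2 and 3. That 9118 bp from Epha2 (chr4:141291655-141292103) was weak, with 5.07, 2.60 and 4.51. That next to the Efna1 start (chr3:89280976-89281600), 25 bp from it, was weaker still, with 1.84, 3.90 and 1.55, and was also open in 1 Embryo library. Inpp4b encodes a phosphoinositide phosphatase, and the stronger of its 2 members, in its body (chr8:81482441-81483157), had 15.6, 5.66 and 32.6. Lima1 encodes an actin-binding protein of epithelial junctions, and the member in its body (chr15:99787427-99788092) had 12.7, 11.9 and 18.8. Zfp469 held one with 9.94, 16.0 and 14.0 (chr8:122057070-122057476). Cfap74, a gene of motile cilia, held one with 1.70, 16.9 and 13.5 (chr4:155402827-155403379), the only one of the 12 best-ranked members below 5 in any K5SmoM2Sox9cKO library. Rb1 encodes the retinoblastoma protein that holds back entry into S phase, and the member in its body (chr14:73194356-73195184) had 24.5, 5.66 and 11.6.

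Few members lay at gene starts. Of the 251, 124 (49.4%, 95% Wilson interval 43.3 to 55.5) were inside a protein-coding gene body, against 50.1% of K5SmoM2-only regions, 50.6% of WT-only regions and 56.5% of all regions. A gene end stood at 1 kb or less from 12 members (4.78%, 2.76 to 8.17), compared with 3.55% of K5SmoM2-only, 3.84% of WT-only and 13.6% of all regions. The interval of the members held both other group-specific values and lay below that of all regions. No gene lay within 100 kb of 33 members (13.1%, 9.52 to 17.9), against 23.2% of K5SmoM2-only, 15.0% of WT-only and 10.4% of all regions. Members were short, with a median of 557 bp, close to the 555 bp of K5SmoM2-only regions, against 658 bp for WT-only and 693 bp for all regions, and ranged from 259 to 2605 bp. Intervals and limits on these shares cover counting error only.

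Beside Skint3, Ihh and Efna1, members within 1 kb of a gene start or end included those of Clcn4, a chloride transporter gene (inside the gene, 824 bp from its start), and Sds, the gene of serine dehydratase (2 bp). Ihh encodes Indian hedgehog, a ligand that acts upstream of Smoothened. The member on its start, chr1:74951034-74952004, had a −log10 q of 2.92, 2.50 and 1.62 in the K5SmoM2Sox9cKO libraries, near the lowest value a list can hold, and was also open in Embryo replicate 1 with 5.75. Its place on the Ihh start therefore rested on weak intervals in the adult libraries.

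Of the 251 members, 17 (6.77%, 4.27 to 10.6) were also open in the Embryo libraries, 12 in 1 library and 5 in both. The same share was 4.85% of the K5SmoM2-only regions and 2.53% of the WT-only regions, 30.5% of all regions open in 3 of 3 K5SmoM2Sox9cKO libraries and 21.0% of all regions. The Wilson interval of the members held the K5SmoM2-only value and lay above the WT-only one. The 5 open in both Embryo libraries lay in Efcab6, Atp8a2, Chsy1 and Nup210 and 52587 bp from Gm21586. Efcab6 (chr15:84038443-84040719) had a −log10 q of 4.28, 4.87 and 17.7 in K5SmoM2Sox9cKO and of 9.78 and 3.81 in Embryo. Atp8a2 (chr14:59992429-59995033) had 2.29, 5.66 and 3.98 in K5SmoM2Sox9cKO and 8.35 and 4.46 in Embryo. Chsy1, which encodes a chondroitin synthase, held one with 1.70, 4.11 and 5.50 in K5SmoM2Sox9cKO and 5.41 and 4.89 in Embryo. Those open in 1 Embryo library included members at Lmx1b, a LIM homeobox gene, at Tmem200a, at Htr4, a serotonin receptor gene, and at Dnm2, the gene of dynamin 2. None of the 42 strong members was open in either Embryo library, which allows a share of up to 7.14% by a limit of 3 counts and of 8.38% by the upper Wilson bound. All 17 thus lay outside these 42, but both limits lie above the 6.77% of all members. Nothing particular to the 42 can be read from this count.

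**Figure D3:**
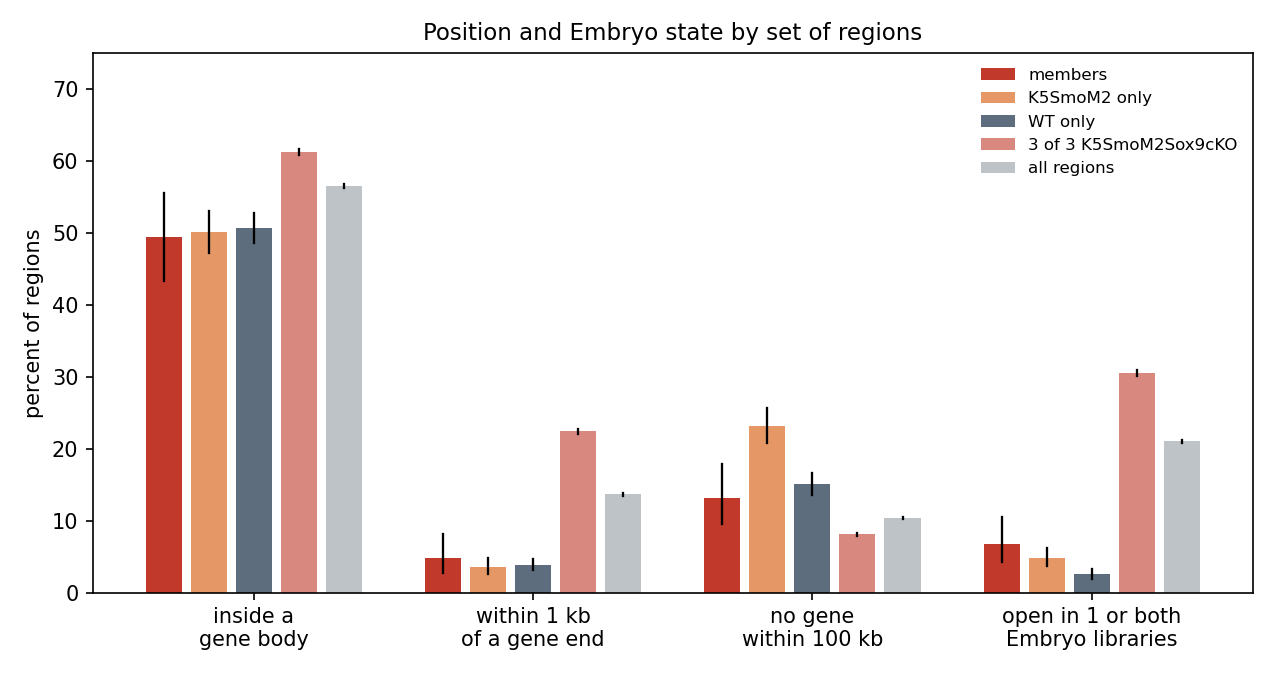
Percent of regions (vertical axis, with 95% Wilson intervals) inside a gene body, within 1 kb of a gene end, without a gene within 100 kb and open in Embryo, for the 251 members, the 1155 K5SmoM2-only and 2216 WT-only regions, the regions open in 3 of 3 K5SmoM2Sox9cKO libraries and all regions. The members stand at 4.78% near gene ends and 6.77% open in Embryo, below the 13.6% and 21.0% of all regions; the WT-only regions stand at 2.53% open in Embryo.

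Of 22 lists of pathways and cell types 9 held a member. In these 9, members were 0.649% to 1.32% of the regions open in all 3 K5SmoM2Sox9cKO libraries, against 0.42% of all such regions. These lists were set apart for holding a member, so that difference carries no information. The other 13 held none. Each member was given to the closest coding gene at up to 100 kb, which placed 218 members at 207 of the 17850 genes with any region (1.16%). No member lay at the 19 Sox factor genes, the 24 genes of families reported as Sox9 targets, or the 36 genes of squamous differentiation that had a region; among their 91, 157 and 182 regions open in all 3 K5SmoM2Sox9cKO libraries, 0 members allow a share of up to 3.30%, 1.91% and 1.65%. Members made up 0.42% of all 59775 such regions, a share that lies below each of these limits, so nothing particular to any list can be read from these counts. The lists of BMP and TGF-beta (38 genes), Notch (25), AP-1 and stress factors (24) and hair follicle and basal cell carcinoma genes (25) also held none. The Hedgehog list held 2 of 31 genes, Ihh and Sfrp1. The Wnt list held 3 of 50, namely Sfrp1, which encodes a secreted Wnt inhibitor, Znrf3, which encodes a ligase that removes Wnt receptors, and Wnt5b, a ligand gene. Their members had a −log10 q of 3.59, 5.66 and 15.6 (Sfrp1), of 4.28, 4.87 and 1.64 (Znrf3) and of 2.39, 3.98 and 2.22 (Wnt5b) in K5SmoM2Sox9cKO replicates 1, 2 and 3, so each was weak in at least 1 of these libraries.

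Among the 25 genes of squamous basal identity, the integrin genes Itga6 and Itgb1 held 1 member each. Itga6 encodes a part of the hemidesmosome receptor, and the member in its body had 2.75, 2.70 and 10.6. That of Itgb1 lay 19984 bp from the gene, beside the start of LOC108167564 searched above, and was weak, with a median rank of 92.5%. Of 37 genes of foregut endoderm and columnar epithelium, Gata4, which encodes a GATA factor of the foregut, had a member 8715 bp away with 4.28, 5.66 and 3.26. Epcam, the gene of the protein used in sorting, had 2 members, 78950 and 68838 bp from its start, with 4.28, 8.57 and 24.1 and with 1.78, 4.42 and 2.24. The list of ErbB, FGF and other receptor tyrosine kinase genes held 2 of 32, Epha2 and Epha4. That of epithelial-mesenchymal transition and adhesion held 1 of 28, Epcam, that of the cell cycle and apoptosis 1 of 29, Rb1, and that of housekeeping genes 1 of 25, Ywhaz. Of the lists that mark other cell types, those of fibroblasts (14 genes with a region), muscle (13), neural cells and glia (16), neuroendocrine cells (12) and melanocytes (8) held no member. In that order, 0 members allow a share of up to 9.68%, 15.8%, 7.69%, 8.11% and 13.6% of their regions open in all 3 K5SmoM2Sox9cKO libraries. Members made up 0.42% of all such regions, so nothing can be read from these counts of 0. The list of endothelium held 1 of 18, Tek, whose member 12938 bp away had 7.36, 11.9 and 1.36. The summed level of these markers cannot be had from lists of intervals.

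The libraries left out in turn gave a measure that the choice of regions did not use. Regions open in 2 K5SmoM2Sox9cKO libraries and in none of the 6 others were also open in the library left out in 39.6%, 42.1% and 41.8% of 634, 596 and 600 cases with replicate 1, 2 and 3 left out (41.1% pooled, Wilson interval 38.9 to 43.4). The same choice made on K5SmoM2 gave 65.7%, 47.4% and 78.6% (61.2% pooled), and on WT 58.3%, 80.0% and 74.6% (69.7% pooled). The 3 values for K5SmoM2Sox9cKO lay below all 6 of the other groups, a difference that was not tested. Of all 124941 regions, 80579, 73957 and 71847 were open in K5SmoM2Sox9cKO replicates 1, 2 and 3, a larger share in each case. Those regions include the 44519 open in all 9 adult libraries. The pooled intervals treat regions as independent, and the same region can enter more than once.

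On the closed side, regions open in 3 of 3 K5SmoM2Sox9cKO libraries and in none of 5 others lacked an interval in the sixth in 66.6%, 86.9% and 49.0% of cases with K5SmoM2 replicate 1, 2 and 3 left out, and in 91.9%, 83.7% and 81.8% with WT replicate 1, 2 and 3. Among all 59775 regions open in 3 of 3 K5SmoM2Sox9cKO libraries, 6.61%, 7.09% and 2.85% lacked one in those K5SmoM2 libraries and 16.9%, 12.5% and 13.2% in those WT libraries. K5SmoM2 replicate 3 had the longest list, 87910 intervals, and the lowest held-out value; the part of list length was not tested.

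**Figure D4:**
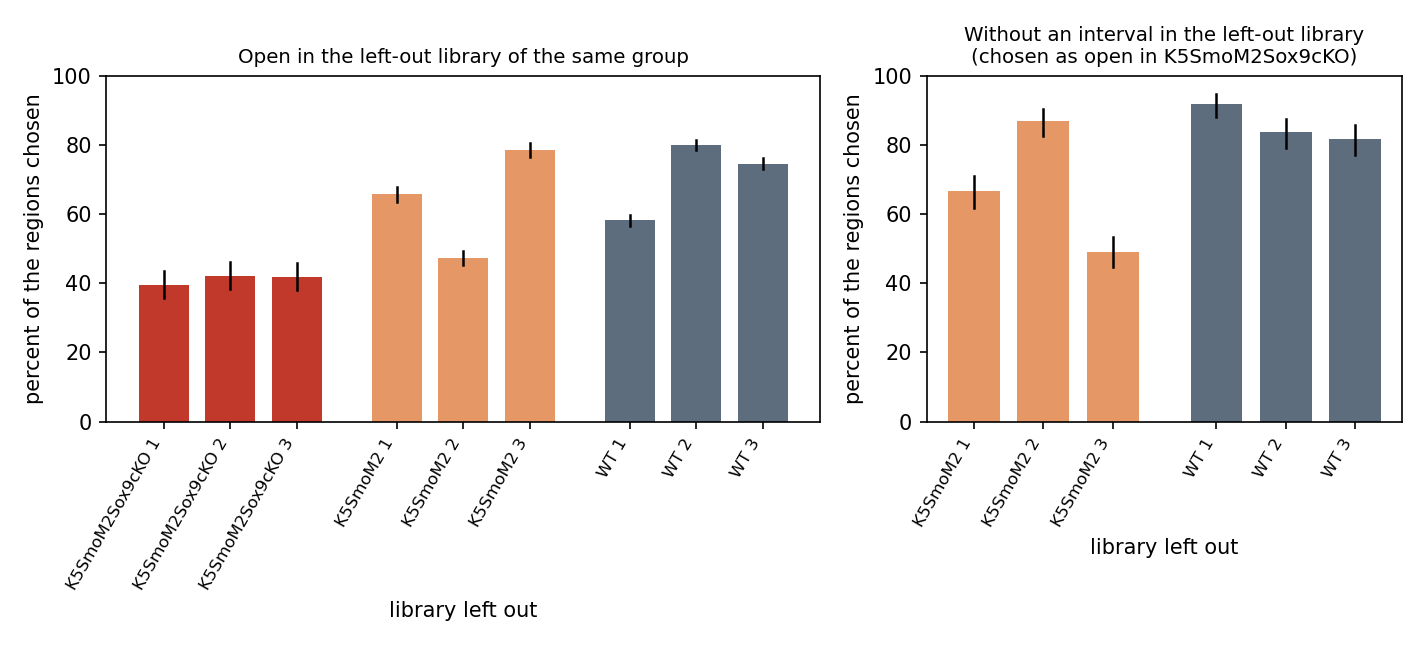
Percent of chosen regions (vertical axes, with 95% Wilson intervals) that were open in the left-out library of the same group (left panel) or had no interval in the left-out K5SmoM2 or WT library (right panel), by library left out. The 3 K5SmoM2Sox9cKO bars on the left stand at 39.6% to 42.1%, below all K5SmoM2 and WT bars, and the lowest bar on the right is K5SmoM2 replicate 3 at 49.0%.

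Many regions missed membership by 1 library. There were 552 open in 3 of 3 K5SmoM2Sox9cKO and 1 of the 6 other libraries; that one was a K5SmoM2 library in 425 and a WT library in 127, and K5SmoM2 replicate 3 alone accounted for 261. A further 1077 were open in 2 of 3 K5SmoM2Sox9cKO and none of the others. The best ranked of the first kind, chr2:178528146-178529140 near Cdh26, a cadherin gene, had a −log10 q of 14.6, 38.0 and 45.8 in K5SmoM2Sox9cKO and 5.74 in K5SmoM2 replicate 1. One near Rap1b had 33.8, 34.1 and 23.9 in K5SmoM2Sox9cKO and 3.35 in K5SmoM2 replicate 3. One near Sh3bgrl2 had 13.7, 43.1 and 27.6 in K5SmoM2Sox9cKO and 4.13 in K5SmoM2 replicate 3. Of the second kind, a region near Otud7a had 35.6 and 19.8 in K5SmoM2Sox9cKO replicates 2 and 3 and no interval in replicate 1. One in Spock1 had 21.8 and 22.0 in replicates 1 and 3, and one near Tmcc2 had 37.1 and 17.7 in replicates 2 and 3. These 6, the best of their kinds by median rank, stood above the members' medians of 4.18, 4.87 and 4.28; just inside the rule, the weakest members had a −log10 q of 1.36, 1.40 and 1.36.

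Whether the genes near members already differed between K5SmoM2 and WT was tested on the number of open regions per gene locus, since the rule did not use that contrast. In limma's fit over all loci with Benjamini-Hochberg adjustment, 1665 of 15473 loci (10.8%) were called, 844 with more open regions in K5SmoM2 (5.45%) and 821 with fewer (5.31%). Of the 207 loci with members 187 were tested, and 37 (19.8%) were called, 25 up (13.4%) and 12 down (6.42%), while 150 did not pass. The filter ran over all 9 adult libraries, so a locus could pass through the K5SmoM2Sox9cKO libraries on which members were chosen. With only the 6 libraries compared, 34 of 183 loci with members were called, 24 up and 10 down. Over all loci that setting called 1741 of 15557, 923 up and 818 down. In the main fit the median log2 change was 0.01 at the loci with members and −0.10 at all tested ones. Loci with members were larger, with a median of 6.67 open regions per K5SmoM2 or WT library against 2.50 over all tested loci. Among loci with at least 6 such regions, a bound chosen after the data were seen, 23 of 97 with members were called (23.7%) against 548 of 3293 over all (16.6%). As the members were chosen on these same libraries, these counts are given without a test of the list.

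Grik4, which encodes a kainate receptor subunit and held 3 members, rose. It had 18, 13 and 16 open regions in the K5SmoM2Sox9cKO libraries, 14, 10 and 18 in the K5SmoM2 libraries and 4, 5 and 4 in the WT libraries. The groups K5SmoM2 and WT did not overlap, with a log2 change of 1.45 (SE 0.16, limma adjusted p = 0.00106). The 3 members at Grik4 thus lay in a locus with more open regions in K5SmoM2 than in WT. Tmem200a also rose, with 6 ± 1 open regions in K5SmoM2 and 0.667 ± 1.15 in WT (SD, n = 3 each; log2 change 2.81, SE 0.57, limma adjusted p = 0.0140). Znrf3 rose by 0.43 on the log2 scale (limma adjusted p = 0.0102), with 18 ± 0 open regions in K5SmoM2 and 12.3 ± 0.58 in WT (SD, n = 3 each). Epha4 had 13 ± 1 and Rb1 14.7 ± 0.58 in K5SmoM2, against 9 ± 0 and 10 ± 1.73 in WT (SD, n = 3 each), with log2 changes of 0.40 and 0.44 (limma adjusted p = 0.0379 and 0.0362); both calls were lost under 8 of 19 alternatives.

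Other loci with members had fewer open regions in K5SmoM2 than in WT. Slit3, the gene of a secreted guidance ligand with 2 members in its body, fell by 0.66 on the log2 scale (limma adjusted p = 0.00945), with 21 ± 3 open regions in K5SmoM2 and 31 ± 2.65 in WT (SD, n = 3 each). Htr4 had 1.67 ± 0.58 in K5SmoM2 and 4.67 ± 0.58 in WT (SD, n = 3 each; log2 change −1.39, limma adjusted p = 0.0016). Sfrp1 had 16.3 ± 1.53 in K5SmoM2 and 18.3 ± 0.58 in WT (SD, n = 3 each; log2 change −0.27, limma adjusted p = 0.0373), a call lost under 11 of 19 alternatives. A last pair is named after their values were seen. Rora, which encodes a nuclear receptor, fell by 1.58 on the log2 scale (limma adjusted p = 8.45e-05), with 16.7 ± 2.31 open regions in K5SmoM2 and 47.3 ± 4.73 in WT (SD, n = 3 each). Ank, which encodes a pyrophosphate transporter, rose by 1.21 on the log2 scale (limma adjusted p = 7.84e-05), with 21.3 ± 1.15 in K5SmoM2 and 8.33 ± 1.15 in WT (SD, n = 3 each).

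At the Skint and Ccl loci few open regions stood in K5SmoM2 or WT, and none of the loci tested there was called. The loci of Skint3, Skint4 and Skint9 and of Ccl12, Cfap74 and Sds held no open region in any K5SmoM2 or WT library and had too few in K5SmoM2Sox9cKO to pass the filter of a mean of 1 over the 9 adult libraries. Skint2 did not pass it either. Their open regions in the K5SmoM2Sox9cKO libraries were 2, 2 and 2 at Skint3, 3, 1 and 2 at Skint4, 1, 1 and 1 at Skint9, 2, 2 and 2 at Ccl12, 2, 2 and 1 at Cfap74 and 1, 1 and 1 at Sds. Skint6, with 4, 3 and 3 open regions in K5SmoM2Sox9cKO and 0 in each K5SmoM2 and WT library, passed the filter through K5SmoM2Sox9cKO alone, so its fitted value for K5SmoM2 against WT carries no information. Skint5 had 3, 4 and 2 open regions in K5SmoM2Sox9cKO, 1, 0 and 0 in K5SmoM2 and 0, 0 and 1 in WT. With a mean of 0.333 in K5SmoM2 and in WT, Skint5 also reached the filter only through K5SmoM2Sox9cKO, so its fitted value is not read here. Ccl8 had 3, 3 and 3 in K5SmoM2Sox9cKO, 2, 2 and 2 in K5SmoM2 and 1, 0 and 1 in WT, with a log2 change of 1.16 for K5SmoM2 against WT (SE 0.39, limma adjusted p = 0.0971). The loci of Inpp4b, Lima1, Efna1, Epha2, Itga6, Itgb1, Gata4, Wnt5b and Epcam were tested and not called. Ihh was not called either, but with a mean of 0.667 in K5SmoM2 and in WT it reached the filter only through K5SmoM2Sox9cKO. Epcam had 13, 13 and 15 open regions in K5SmoM2Sox9cKO, 11, 11 and 10 in K5SmoM2 and 9, 10 and 9 in WT. For K5SmoM2 against WT its log2 change was 0.08 (SE 0.12, limma adjusted p = 0.640).

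Which regions are members depended on how an interval was called. With only intervals of −log10 q of 5 or more counted on every list, 242 regions met the rule, of which 42 were among the 251. With every list shortened to its 69026 strongest intervals, 280 did, of which 90 were among the 251. The 42 strong members met the rule under all 6 alternatives to the definition of an open region. For the alternatives with stricter intervals this followed from the bound of 5 that chose the 42, and the other members failed there by the same bound. The 42 include 4 of the 5 members between Pax1 and Foxa2, 6 of the 8 Skint members and all 3 near Ccl12 and Ccl8. They also include the members whose values are given above at Epha4, Inpp4b, Lima1, Rb1 and Zfp469.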

How the data were processed

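Per the labels' protocols, sorted cells were treated with transposase and the libraries sequenced as paired ends. Per the submitters' processing notes, Trimmomatic, Bowtie2, Picard, MACS2 and deepTools were used on GRCm38/mm10; versions are not given. Each of the 11 deposited lists has 10 columns. They hold what MACS2 wrote for the authors: a score (column 5, deposited and not used here), a fold enrichment over local background (column 7), −log10 p and −log10 q values (columns 8 and 9) and the summit position (column 10).

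Intervals of chromosomes 1 to 19 and X were merged where they shared 1 bp. Genes were the protein-coding genes of the GRCm38.p6 RefSeq table; a locus took the regions whose nearest gene body, within 100 kb, was that gene. Start sites came from the RefSeq promoter table, which matched 79.9% of those genes, and gene ends were used elsewhere. The table holds no strand for the rest. Shares have 95% Wilson intervals. Loci were tested with limma 3.58.1 (trend) in R 4.3.3 on log2((open regions + 0.5) / (total + 1) × 100000), for means of at least 1 region, over the 9 adult libraries in 1 fit, with Benjamini-Hochberg adjustment at 0.05. A change is in the number of open regions, not in signal or expression. The steps were run on simulated data. The planted regions lay where no library had an interval, so their recovery does not bear on weak intervals. Neighbourhoods were compared with two-sided exact permutation tests.

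Members, gene lists and tests were chosen with earlier results of these data known. Regions named are the 12 best ranked, those within 1 kb of a start, up to 4 per list, up to 5 and 8 open in both or 1 of the Embryo libraries, genes with most members, and 3 regions on each side of the rule. A region that this rule names is not reported here. The planned search of summit windows was replaced by promoter windows, since no genome sequence was used here. Alternatives covered stricter intervals, equal-length lists, other overlaps and windows, other fits, and each library left out.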

Additional observations from a re-analysis of the deposited data

How the results depend on the processing

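The number of members changed most with the definition of an open region. It was 42 with only K5SmoM2Sox9cKO intervals of −log10 q of 5 or more. With regions merged from the K5SmoM2Sox9cKO lists alone, and a WT or K5SmoM2 library counted as closed below 50% coverage, it was 779. Across the 9 counts without 1 library it ran from 273 to 634, with 634, 596 and 600 without K5SmoM2Sox9cKO replicate 1, 2 and 3, 377 without K5SmoM2 replicate 1 and 512 without K5SmoM2 replicate 3. Of the 251, 42 met the rule under all 6 definitions, an outcome that the bound of 5 fixed for those with stricter intervals or shortened lists. Nearly all members met the rule under the remaining definitions. Among the 42, 0% were open in Embryo and 42.9% inside a gene body; under 50% coverage 10.01% of members lay near a gene end. Without 1 library the Embryo share ran from 3.94% to 8.67%, the gene-body share from 46.2% to 52.5% and the gene-end share from 4.396% to 6.71%. The held-out open share was 46.3% with intervals of −log10 q of 5 or more on all lists, and the held-out closed share 76.7% with equal-length lists; these 2 values left the Wilson interval of the main one. The causes were not tested.

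For K5SmoM2 against WT, no scaling by library total gave 1107 called loci (763 up, 344 down; 68.9% up, against 50.7% up with scaling) and 23 called loci with members. Scaling moved the median log2 change of all loci by −0.10. Without 1 library the count ran from 1081 to 1683 loci and from 25 to 41 loci with members, lowest without K5SmoM2 replicate 1 (1081). With a replicate block 1520 loci were called (827 up, 693 down) and 37 with members. Deviations from group means correlated at −0.07 to 0.08 between same-numbered libraries, so the numbers were not treated as pairing them. Of the named loci, Ank, Grik4, Htr4 and Rora were called under all 19 alternatives, Slit3 and Znrf3 under 18, Tmem200a under 17, Epha4 and Rb1 under 11 and Sfrp1 under 8; none changed direction. The depth behind the lists is unknown, and the short Embryo lists limit what can be seen there.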
